A study of Homo sapiens with 4 samples.

Results

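The genes described here are the ribosome biogenesis factors, 74 of the 28973 genes in a deposited RNA sequencing table of the human ovarian cancer line TOV-112D. They are the rows whose deposited KEGG annotation holds the pathway for ribosome biogenesis in eukaryotes but not the spliceosome. That pathway was named on 75 rows, and SNU13, a protein shared with the spliceosome, was the row left out. Each library is a bulk RNA sample, labelled BSA 1, BSA 2, PA 1 or PA 2, and read counts per gene were compared within and between the groups of 2 libraries. Per their titles and treatment labels, the PA libraries came from cells given palmitic acid, a saturated fatty acid, at 200 µM for 24 h, and the BSA libraries from cells given bovine serum albumin, its usual carrier, as the control, labelled with the same concentration and time. TOV-112D is an established line, and no label gives an altered gene for the BSA libraries. The labels do not tell whether libraries of a group are separate cultures, so the spread behind each p-value is that among the sequenced libraries and may be technical.

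What the PA libraries are is labelled in conflicting ways. Their description names a knockdown of SPTLC2, a subunit of the enzyme that starts sphingolipid synthesis, and the treatment text also speaks of cells with a control hairpin and cells with a hairpin against ZDHHC15, a palmitoyltransferase. ZDHHC15 held 291 and 225 counts in BSA 1 and BSA 2 and 190083 and 167798 counts in PA 1 and PA 2. SPTLC2 held 1524 and 1080 counts in the BSA libraries and 2194 and 1740 counts in the PA libraries. Neither gene was therefore lower in the libraries labelled PA, and below, "PA" and "BSA" stand for the libraries so labelled.

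Ribosome biogenesis begins in the nucleolus, where RNA polymerase I makes a long precursor RNA that is folded, chemically modified and cut into the ribosomal RNAs. Assembly factors join it in modules: the small subunit processome with its UTP-A, UTP-B, UTP-C and MPP10 parts, the small nucleolar ribonucleoproteins that place methyl groups (box C/D) and pseudouridines (box H/ACA), and nucleases that trim the ends. Pre-40S and pre-60S particles are then exported through nuclear pores and finish maturing in the cytoplasm, and growing cancer cells are known for a high output of this pathway.

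Total counts per library ranged from 23722074 to 31695944. Counts scaled to the library total (CPM) are used for levels between libraries, and FPKM, which also divides by gene length, for levels between genes. Summed CPM of epithelial ovarian carcinoma markers was 2294 and 2972 in BSA and 3267 to 3506 in PA, with 3 of 11 markers (KRT19, WT1 and CDH1) under 1 CPM in every library. Summed CPM was 3.98 and 7.35 in BSA and 2.15 to 2.76 in PA for 5 blood cell genes. For 4 endothelial genes it was 0.279 and 0.536 in BSA and 3.12 to 3.40 in PA. For 5 fibroblast genes it was 533 to 669 in BSA and 391 to 535 in PA, with COL1A2 at 0. The part of these genes in the results below was not tested. The BSA libraries stood further apart than the PA libraries: the SD over 73 ribosome biogenesis factors of the log2 ratio of one library to the other was 1.06 for BSA and 0.43 for PA. The main counts and the role medians below are therefore given against each BSA library singly as well.

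The 74 factors together took 0.701% of all counts in BSA 1, 0.570% in BSA 2, 0.454% in PA 1 and 0.441% in PA 2. Their median level was 69.4 CPM in BSA 1, 50.2 CPM in BSA 2, 41.7 CPM in PA 1 and 42.1 CPM in PA 2. By both measures the PA libraries were close to each other and lowest, BSA 2 lay between, and BSA 1 was highest. In bulk RNA, fewer cells that make a transcript and less of it per cell cannot be told apart.

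Gene by gene, 73 factors had enough counts for a test among 17449 genes, and the nuclear export gene NXF3, with 0, 6, 3 and 6 counts, did not. By edgeR's quasi-likelihood test of PA against BSA, 0 factors passed an adjusted p of 0.05 in either direction, as did 0% of all genes. Even ZDHHC15, at a log2 fold change of 9.69, had an adjusted p of 0.0544 in this test. The test thus had little power, and a count of 0 does not show that the factors were unchanged. At an unadjusted p under 0.05 there were 9 factors lower in PA (12.3%, against 11.2% of all genes tested) and 1 higher (1.37%, against 13.1%). The 9 were FBL, NOP58, DKC1, RAN, XPO1, UTP4, GNL3L, XRN2 and ENSG00000290146, and the 1 was NOL6. DESeq2 called 2 factors lower at an adjusted p of 0.05 (XPO1 and NXT2, 2.74%, against 4.42% of all genes) and 0 higher (against 6.13%), with 13 and 1 at an unadjusted p under 0.05 (against 12.8% and 11.7%). By limma-voom, 0 factors passed. The median log2 fold change was -0.34 over the 73 factors and -0.12 over all genes, and the fold change was negative for 60 factors (82.2%, against 55.9% of all genes).

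Calls changed with the libraries left in. A fit with 1 BSA library takes its spread from the PA libraries alone, which stood closer together. Its calls and p-values, here and below, therefore do not measure the spread between BSA libraries. Without BSA 1, edgeR called 23 factors lower and 6 higher in PA (31.5% and 8.22%, against 22.6% and 25.3% of all genes). Without BSA 2 it called 39 lower and 8 higher (53.4% and 11%, against 30% and 27.3%). Without PA 1 it called 0 in either direction (against 0% lower and 0.0864% higher of all genes), and at an unadjusted p under 0.05 it gave 4 lower (5.48%, against 4.41%) and 0 higher (against 4.42%). Without PA 2 it also called 0 (against 0% and 0.0481%), with 2 lower (2.74%, against 3.48%) and 0 higher (against 3.88%) at that p. At an unadjusted p under 0.05 the counts were 25 lower and 8 higher without BSA 1 (against 25.4% and 27.9% of all genes) and 39 lower and 8 higher without BSA 2 (against 31.9% and 29.2%). These fits share libraries, so their counts are not independent. Without a filter on low counts, 1 factor was called lower (XPO1, adjusted p = 0.0421, against 1.66% of all genes) and 0 higher (against 3.06%), with 17 lower and 1 higher at an unadjusted p under 0.05 (against 11.3% and 9.09%).

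In 36 of 73 factors (49.3%, against 32.7% of all genes) both PA libraries lay below both BSA libraries. In 5 (6.85%, against 26.5%) they lay above: NOL6, RPP38, RBM28, TCOF1 and TBL3. With 2 libraries against 2, an exact two-sided permutation test of a single gene cannot go below p = 0.333. Both shares use CPM of library totals, without the TMM factors of the edgeR test (1.04 and 1.01 in BSA, 0.98 and 0.97 in PA). Those factors would bring lower PA levels closer to BSA. Some gaps were small (log2 0.049 in WDR43, 0.054 in POP5 and 0.056 in RPP25), and such factors may overlap with TMM scaling. The share of factors with PA lowest was above the background and the share with PA highest was below it.

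**Figure D1:**
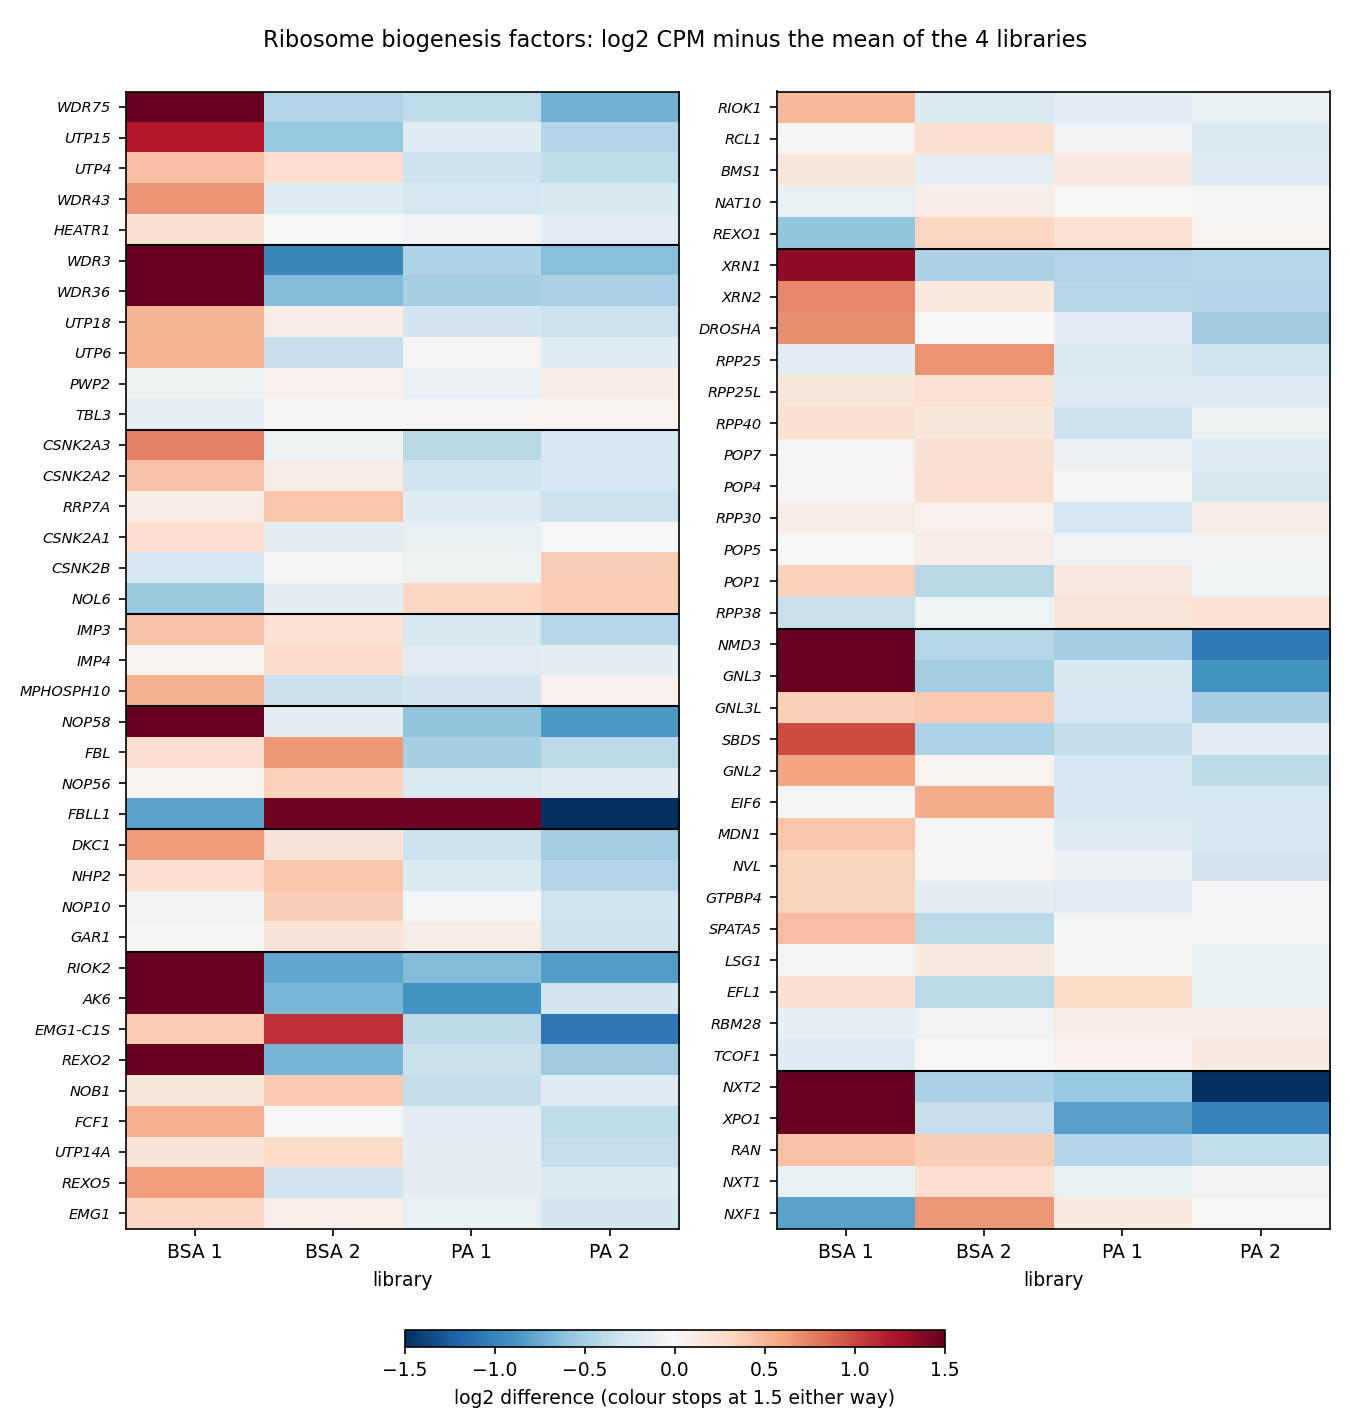
Colour shows the log2 CPM of each factor (rows, ordered by role and within a role by fold change, black lines between roles) in each library (columns), minus the mean of the 4 libraries, with colour stopping at 1.5 either way. BSA 1 was above a factor's own mean in 56 of 73 factors, BSA 2 in 40, PA 1 in 16 and PA 2 in 12. The row labelled EMG1-C1S is ENSG00000290146.

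Against single libraries, levels in PA (the mean of both PA libraries) were at least 2-fold lower than in BSA 1 for 19 factors (26%, against 23.2% of all genes) and 2-fold higher for 0 (against 11.6%). Against BSA 2 the counts were 3 lower (4.11%, against 13.6%) and 0 higher (against 12.3%), and the 3 were FBL, its paralogue FBLL1 and ENSG00000290146. BSA 2 was itself at least 2-fold below BSA 1 for 14 factors (19.2%, against 18.8%) and above it for 2, FBLL1 and NXF1 (2.74%, against 7.91%). PA 2 was 2-fold below PA 1 for 2 factors of low count, NXT2 and FBLL1 (2.74%, against 3.23%), and above it for 0 (against 1.87%). The median log2 ratio over the factors was -0.51 against BSA 1, -0.26 against BSA 2 and -0.23 for BSA 2 over BSA 1, where all genes gave -0.15, -0.05 and -0.02. These ratios share libraries with each other. The downward shift of the factors relative to all genes was thus present against either BSA library, but the large single-gene differences were mostly those against BSA 1. The BSA libraries themselves differed in these factors by a like amount (BSA 2 over BSA 1, -0.23, against -0.02 for all genes). The shift against BSA 2 was therefore no larger than that between the controls.

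Of these 10 factors, 4 are set out in full because they differ in how the BSA libraries behave. FBL encodes fibrillarin, the methyltransferase of box C/D particles, and spans chr19:39834458-39846379 on the minus strand (hg38). Its level was 244 CPM in BSA 1, 325 in BSA 2, 147 in PA 1 and 157 in PA 2. Both PA libraries were below both BSA libraries, with a log2 fold change of -0.84 ± 0.24 (SE, n = 2 per group; edgeR adjusted p = 0.143). RAN, the small GTPase that gives nuclear transport its direction, spans chr12:130872037-130877678 on the plus strand. It stood at 662 and 633 CPM in BSA 1 and BSA 2 and at 361 and 377 CPM in PA 1 and PA 2. In CPM, the libraries of each group were close together for RAN and the groups were apart. The log2 fold change was -0.74 ± 0.21 (edgeR adjusted p = 0.135). This arrangement did not hold with the trend of all genes over GC content and length removed (described below). The log2 ratio was then 0.62 for BSA 2 over BSA 1, -0.11 for PA over BSA 1 and -0.74 for PA over BSA 2. In that fit the log2 fold change was -0.46 (edgeR adjusted p = 0.272).

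XPO1 encodes the export receptor that carries pre-ribosomal particles and many proteins out of the nucleus with RAN, and spans chr2:61476032-61538741 on the minus strand. It stood at 519 CPM in BSA 1, 91.9 in BSA 2, 66.4 in PA 1 and 58.0 in PA 2. BSA 1 stood apart from the other 3 libraries, among which BSA 2 was highest. The log2 fold change was -2.21 ± 0.79 (edgeR adjusted p = 0.187, DESeq2 adjusted p = 0.0233). It was -0.50 without BSA 1 and -2.95 without BSA 2. NOL6, a small subunit processome protein of the UTP-C part, spans chr9:33461353-33473930 on the minus strand. It stood at 67.9 and 90.4 CPM in BSA 1 and BSA 2 and at 123 and 130 CPM in PA 1 and PA 2. NOL6 was the one factor with a higher level in PA at an unadjusted p under 0.05 (log2 fold change 0.75 ± 0.24, edgeR adjusted p = 0.166).

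The promoters of these 4 genes are printed to show whether the E-box CACGTG, the core motif that MYC and related factors bind, stands near their start. Each is 300 bases from RefSeq (GRCh38.p14), 250 before the start and 50 after, on the gene's strand, with CACGTG in capitals. FBL lies at chr19:39846330-39846629, NOL6 at chr9:33473875-33474174 and XPO1 at chr2:61538307-61538606 (all minus strand), and RAN at chr12:130871816-130872115 (plus strand).
FBL: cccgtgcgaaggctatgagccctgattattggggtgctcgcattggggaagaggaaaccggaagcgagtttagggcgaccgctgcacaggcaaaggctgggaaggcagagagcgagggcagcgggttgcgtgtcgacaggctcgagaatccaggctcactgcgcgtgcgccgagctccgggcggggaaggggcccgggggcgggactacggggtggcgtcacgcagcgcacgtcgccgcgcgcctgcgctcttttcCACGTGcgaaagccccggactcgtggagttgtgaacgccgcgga
RAN: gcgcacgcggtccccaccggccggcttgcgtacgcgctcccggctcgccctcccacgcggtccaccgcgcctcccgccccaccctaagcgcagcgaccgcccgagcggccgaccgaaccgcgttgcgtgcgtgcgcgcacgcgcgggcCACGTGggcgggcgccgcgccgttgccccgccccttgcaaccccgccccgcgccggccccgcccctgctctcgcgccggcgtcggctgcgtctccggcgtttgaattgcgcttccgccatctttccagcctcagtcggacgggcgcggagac
NOL6: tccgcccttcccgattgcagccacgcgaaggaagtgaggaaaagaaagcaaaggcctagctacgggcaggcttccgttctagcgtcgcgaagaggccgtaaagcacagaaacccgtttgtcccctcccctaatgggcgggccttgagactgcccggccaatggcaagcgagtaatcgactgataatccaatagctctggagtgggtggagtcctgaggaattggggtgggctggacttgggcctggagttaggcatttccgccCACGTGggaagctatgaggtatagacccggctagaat
XPO1: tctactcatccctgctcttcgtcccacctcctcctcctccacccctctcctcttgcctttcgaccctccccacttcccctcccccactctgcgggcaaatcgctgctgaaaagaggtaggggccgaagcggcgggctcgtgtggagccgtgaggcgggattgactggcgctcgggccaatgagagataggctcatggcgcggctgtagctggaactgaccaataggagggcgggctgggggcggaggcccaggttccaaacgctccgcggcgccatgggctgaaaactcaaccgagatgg
The FBL, RAN and NOL6 windows hold the letters once each and the XPO1 window does not. The XPO1 window follows the RefSeq start and lies inside the gene span given above, so bases before that span were not searched. CACGTG reads the same on both strands, so each match was counted once. Of 68 factors whose promoter was matched by gene identifier or symbol, 17 (25%) held it. That compares with 7.26% of all 35116 promoters of this length, and with 9.91% of 10857 promoters of protein-coding genes tested (matched by symbol). Among the 34 matched factors with PA below both BSA libraries, 12 (35.3%) held it, against 11% of 3330 promoters of protein-coding genes tested with PA below both. Among the other 34 matched factors 5 (14.7%) held it. These shares are descriptions and were not tested. NOL6, with PA above both BSA libraries, held it too. A match describes the letters only. MYC itself, which lies outside the pathway, stood at 803 and 681 CPM in BSA and at 475 and 572 CPM in PA (log2 fold change -0.43 ± 0.24, edgeR adjusted p = 0.309).

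The difference between the BSA libraries followed base composition. Over 72 factors with a value, the log2 ratio of BSA 2 to BSA 1 and the GC content of the longest transcript had a Spearman correlation of 0.84 across genes, against 0.59 over 16596 genes tested. All points come from the same pair of libraries, and genes are not independent replicates. The 20 factors in the lowest GC bin (27.8% to 42.7%; all genes tested were split into 4 bins of equal size) had a median log2 ratio of BSA 2 to BSA 1 of -1.79 (all genes of that bin, -1.15), and 13 of them were at least 2-fold lower in BSA 2 (55.1% of all genes of that bin were). The 12 factors in the highest GC bin had a median of 0.26. For PA over BSA 1 the correlation with GC content was 0.72 (all genes, 0.47), for PA over BSA 2 it was -0.33 (all genes, -0.084), and for PA 2 over PA 1 it was 0.10 (all genes, 0.14). The large positive correlations were those with BSA 1 as the denominator, and whether it arose in the cells or in the making of the libraries was not tested.

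Stretches of coding sequence from some factors illustrate the contrast in composition. Each is the middle 120 bases of the coding part of the longest coding transcript in GENCODE 29, on the gene's strand. The first 2 genes were far lower in BSA 2 than in BSA 1, with log2 ratios of -2.50 (XPO1) and -3.04 (RIOK2). The last 3 were higher in BSA 2, with log2 ratios of 0.42 (FBL), 0.59 (EIF6) and 1.47 (NXF1).
XPO1: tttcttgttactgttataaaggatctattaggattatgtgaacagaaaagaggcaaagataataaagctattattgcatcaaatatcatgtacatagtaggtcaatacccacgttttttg
RIOK2: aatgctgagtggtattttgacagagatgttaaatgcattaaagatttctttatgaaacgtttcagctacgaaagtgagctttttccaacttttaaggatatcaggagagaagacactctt
FBL: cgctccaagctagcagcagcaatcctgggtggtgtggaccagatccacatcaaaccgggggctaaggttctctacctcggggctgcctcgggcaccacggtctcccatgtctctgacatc
EIF6: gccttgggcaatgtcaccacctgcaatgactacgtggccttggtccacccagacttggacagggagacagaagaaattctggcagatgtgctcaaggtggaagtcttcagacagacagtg
NXF1: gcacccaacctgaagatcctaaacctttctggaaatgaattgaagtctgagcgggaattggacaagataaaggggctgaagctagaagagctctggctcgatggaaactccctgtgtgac
The GC content of these stretches was 30% and 34.2% in the first 2 and 60.8%, 53.3% and 48.3% in the last 3. Other factors did not all keep this split. The same stretch held 30.8% GC in GAR1 and 50.8% in REXO2, with log2 ratios of BSA 2 to BSA 1 of 0.16 and -2.26.

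**Figure D2:**
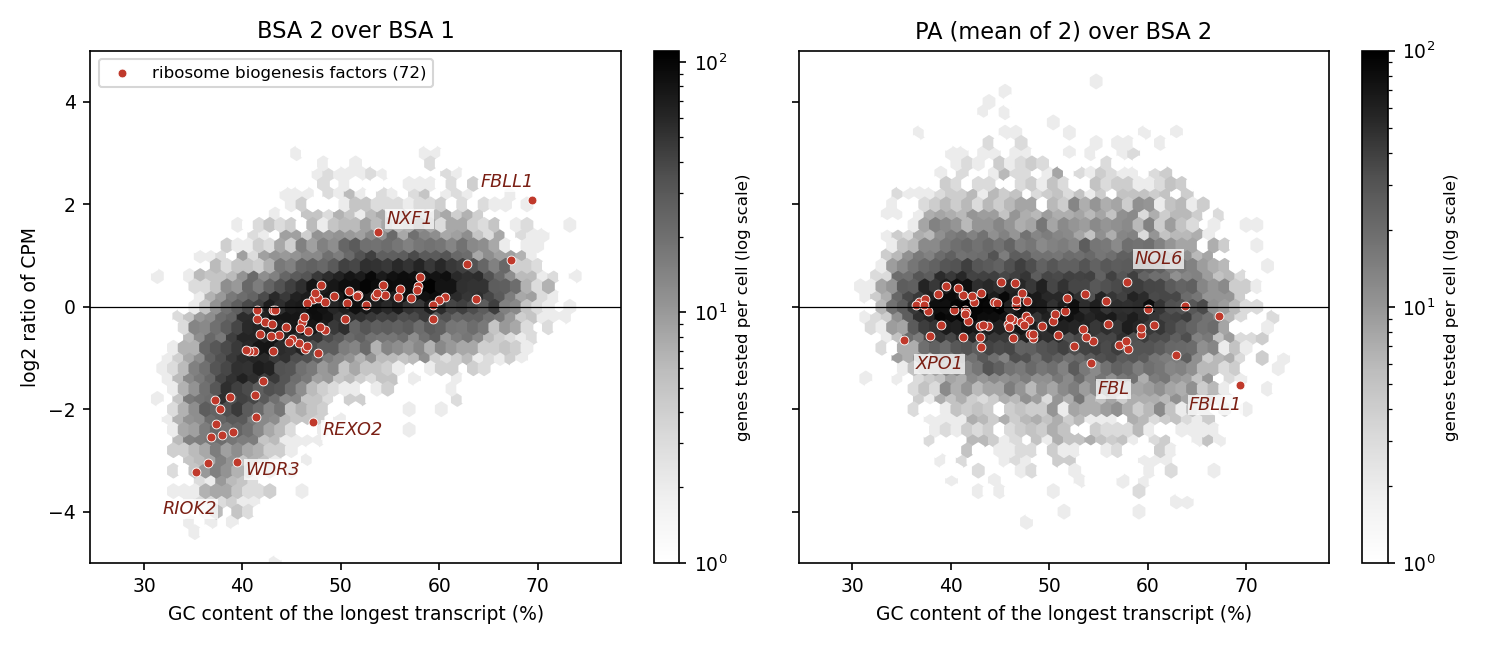
Each red point is a factor (72 with a GC value), placed by the GC content of its longest transcript (x axis, %) and its log2 ratio of CPM (y axis), over grey cells that count all genes tested on a log scale, for BSA 2 over BSA 1 (left; 7 genes fall outside) and PA over BSA 2 (right; 21 fall outside). On the left the factors climb with GC content as all genes do (Spearman 0.84 and 0.59), and on the right the 14 factors that were 2-fold lower in BSA 2 lie around 0 (median 0.04). These 14 were picked by BSA 2 values that also enter the right panel.

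The 14 factors at least 2-fold lower in BSA 2 than in BSA 1 had a GC content of 35.3% to 47.2% (median 38.3%). Their log2 ratio of PA to BSA 2 ran from -0.65 to 0.41 with a median of 0.04, and their ratio of PA to BSA 1 from -3.88 to -1.24. In the mean of the PA libraries, each of the 14 was therefore more than 2-fold below BSA 1 and within 2-fold of BSA 2. The 14 were picked by these same BSA values. That choice can by itself raise PA over BSA 2 and lower PA over BSA 1, so it partly sets any contrast with the other factors. The other 58 had a median GC content of 48.0% and a median log2 ratio of PA to BSA 2 of -0.29. REXO2, an exonuclease that degrades very short RNAs, had the highest GC content of the 14 (47.2%), and its log2 ratio of BSA 2 to BSA 1 was -2.26, or -2.15 with the GC and length trend of all genes removed. With that trend removed before testing, edgeR called 1 factor lower in PA (FBL, adjusted p = 0.0473, 1.39% against 2.62% of all genes) and 0 higher (against 5.51%). At an unadjusted p under 0.05 this fit gave 17 lower (23.6%, against 14.7%) and 1 higher (1.39%, against 16.1%). With a replicate block added to that fit, the edgeR adjusted p of FBL was 0.0615. Its log2 fold change, with no trend removed, was -1.03 without BSA 1 and -0.57 without BSA 2.

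**Figure D3:**
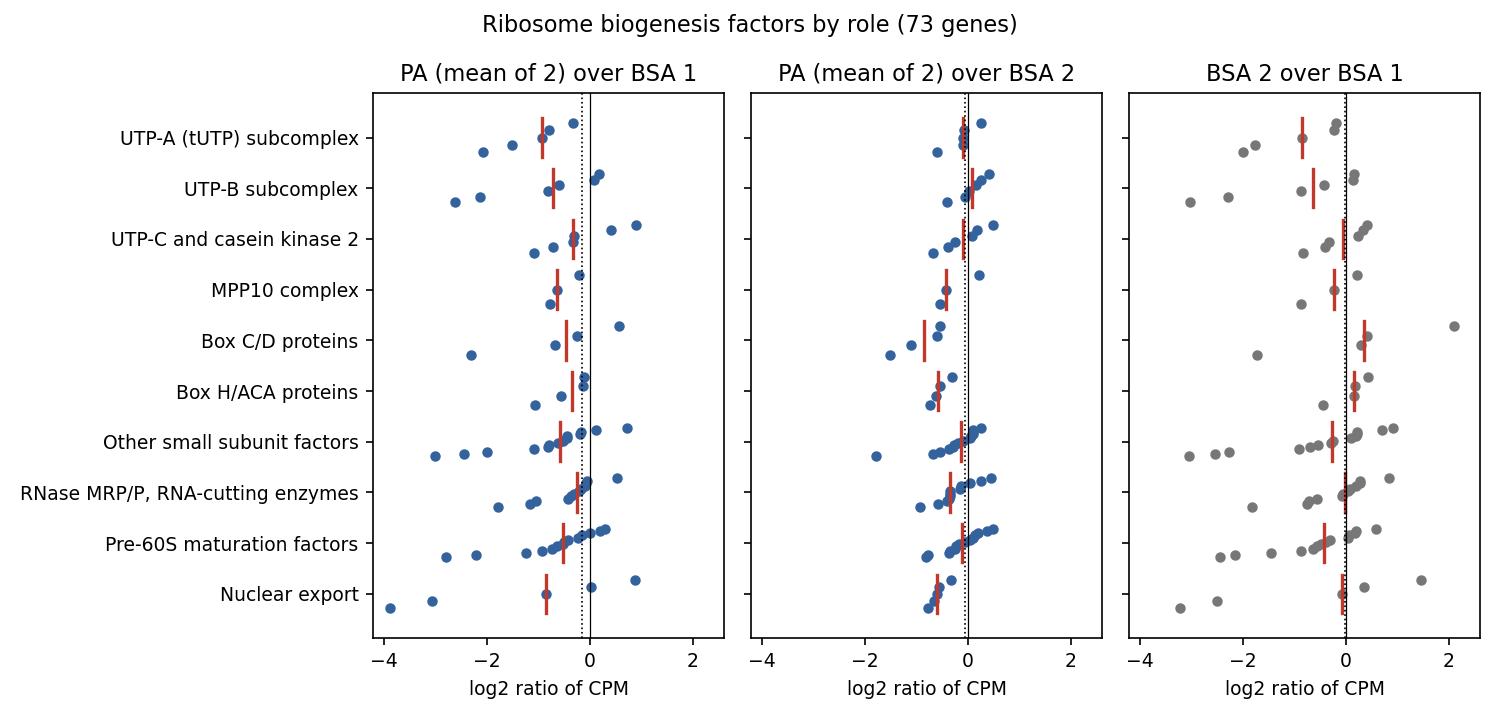
Each point is a factor (73), placed by its log2 ratio of CPM (x axis) for PA over BSA 1, PA over BSA 2 and BSA 2 over BSA 1, with a row for each role; red bars are the role's median and the dotted line the median of all genes tested. Against BSA 2 the box C/D, nuclear export and box H/ACA medians lie furthest left (-0.84, or -0.59 without FBLL1, -0.59 and -0.58), while the UTP-B median is 0.09. The nuclear export median against BSA 2 is the value of NXF1, whose groups overlapped.

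The UTP-A proteins bind the first part of the precursor RNA and are also needed for its transcription. All 5 had a negative log2 fold change with both BSA libraries, with a median of -0.63, but UTP15 was at 0.32 without BSA 1 and HEATR1 at 0.053 with the GC trend removed. The median log2 ratio was -0.92 against BSA 1 and -0.091 against BSA 2, so the size of the pooled value rested on BSA 1. In 3 of the 5 PA lay below both BSA libraries; here and in the roles below, such counts stand against 32.7% of all genes below and 26.5% above. UTP4 stood at 182 and 159 CPM in BSA 1 and BSA 2 and at 108 and 102 CPM in PA 1 and PA 2. Its groups were apart against either control library (log2 fold change -0.63 ± 0.20, edgeR adjusted p = 0.155). WDR43 had the highest mean FPKM of the 5 (26.3) and stood at 165, 91.7, 86.1 and 88.7 CPM in BSA 1, BSA 2, PA 1 and PA 2, so that BSA 2 was almost level with PA. UTP15 stood at 38.7, 11.5, 14.9 and 12.4 CPM, with BSA 2 lowest. WDR75 stood at 84.6 CPM in BSA 1 and at 21.3, 22.4 and 17.9 CPM in BSA 2, PA 1 and PA 2, with the groups overlapping. HEATR1, the largest UTP-A protein, stood at 131, 112, 109 and 100 CPM in the same order, with the smallest fold change of the 5 (-0.15 ± 0.20).

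The UTP-B proteins form a module that joins next, and their values split by control library, with a median log2 ratio of -0.71 against BSA 1 and 0.086 against BSA 2. WDR3 stood at 116 CPM in BSA 1, 14.2 in BSA 2, 20.1 in PA 1 and 17.8 in PA 2. PA was thus far below BSA 1 and above BSA 2, and the log2 fold change was -1.69 ± 0.93 with both BSA libraries (edgeR adjusted p = 0.309) and 0.48 without BSA 1. WDR36 had the same arrangement, at 73.9, 15.2, 16.8 and 16.9 CPM. UTP18 was the only 1 of the 6 with PA below both BSA libraries, at 92.3, 69.0, 53.0 and 51.9 CPM. TBL3 stood at 89.4, 99.3, 101 and 101 CPM and was nearly level (log2 fold change 0.17 ± 0.20, and -0.22 with the GC trend removed).

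In the UTP-C part and casein kinase 2, a kinase that also acts in the processome, NOL6 (above) contrasted with its partner RRP7A. Over the 6 genes the median log2 ratio was -0.32 against BSA 1 and -0.084 against BSA 2. RRP7A stood at 42.0 and 53.0 CPM in BSA 1 and BSA 2 and at 35 and 31.7 CPM in PA 1 and PA 2, below both. CSNK2A1, a catalytic subunit of casein kinase 2, stood at 137, 104, 106 and 114 CPM with the groups overlapping. The other catalytic subunit, CSNK2A2, stood at 70.8, 56.4, 42.5 and 44.0 CPM, with PA below both BSA libraries. CSNK2A3, at 2.12 to 4.78 CPM, is a near copy of CSNK2A1, and its reads may be shared with it. CSNK2B, the regulatory subunit, stood at 16.4, 19.3, 18.7 and 25.4 CPM with overlap.

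The MPP10 complex has 3 members, all with negative fold changes (median log2 -0.25, or -0.63 against BSA 1 and -0.43 against BSA 2; MPHOSPH10 was at 0.31 with the GC trend removed). IMP3, which pairs the U3 RNA with the precursor, stood at 25.4 and 21.6 CPM in BSA and 16 and 13.8 CPM in PA. IMP4, its partner, stood at 76.8 and 88.8 CPM in BSA and 65.6 and 66.6 CPM in PA. PA was below both BSA libraries for both. MPHOSPH10, the scaffold of the complex, stood at 63.4, 34.9, 36.3 and 46.0 CPM, with BSA 2 lowest, and its log2 fold change was -0.18 with both BSA libraries and 0.30 without BSA 1.

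Box C/D proteins had a median log2 ratio of -0.46 against BSA 1 and -0.84 against BSA 2. The second value rests on FBLL1, a paralogue of FBL with at most 16 counts in any library, and is -0.59 without it. FBL is given above. NOP56, a scaffold protein of the particle, stood at 201 and 248 CPM in BSA and 167 and 172 CPM in PA (log2 fold change -0.34 ± 0.22). Its partner NOP58 stood at 153, 46.5, 33.8 and 28.2 CPM in BSA 1, BSA 2, PA 1 and PA 2. FBL, NOP56 and NOP58 were thus lower in both PA libraries than in both BSA libraries. SNU13, also a box C/D protein, was left out by the spliceosome rule and is not covered here. NOP58 differed in having BSA 1 far above BSA 2 (log2 fold change -1.60 ± 0.57, edgeR adjusted p = 0.186). The log2 fold change of NOP58 was -0.52 without BSA 1 and -2.20 without BSA 2. The ratios of FBLL1 itself carry large counting error.

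Box H/ACA particles have 4 core proteins, all members, and all had negative fold changes (median log2 -0.42, or -0.35 against BSA 1 and -0.58 against BSA 2; GAR1 was at 0.062 with the GC trend removed, and NOP10 at 0.0031 without BSA 2). DKC1, the pseudouridine synthase dyskerin, stood at 263 and 193 CPM in BSA 1 and BSA 2 and at 135 and 118 CPM in PA 1 and PA 2. NHP2, which binds the guide RNA, stood at 53.7, 60.4, 39.1 and 33.6 CPM. In both genes PA lay below both BSA libraries, with log2 fold changes of -0.78 ± 0.23 and -0.58 ± 0.24 (edgeR adjusted p = 0.148 and 0.225). The small subunit NOP10 stood at 53.0, 71.1, 53.9 and 44.6 CPM. GAR1, which helps release the modified RNA, stood at 21.9, 24.5, 22.8 and 17.4 CPM. For these last proteins PA 1 was level with BSA 1 and the groups overlapped.

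**Figure D4:**
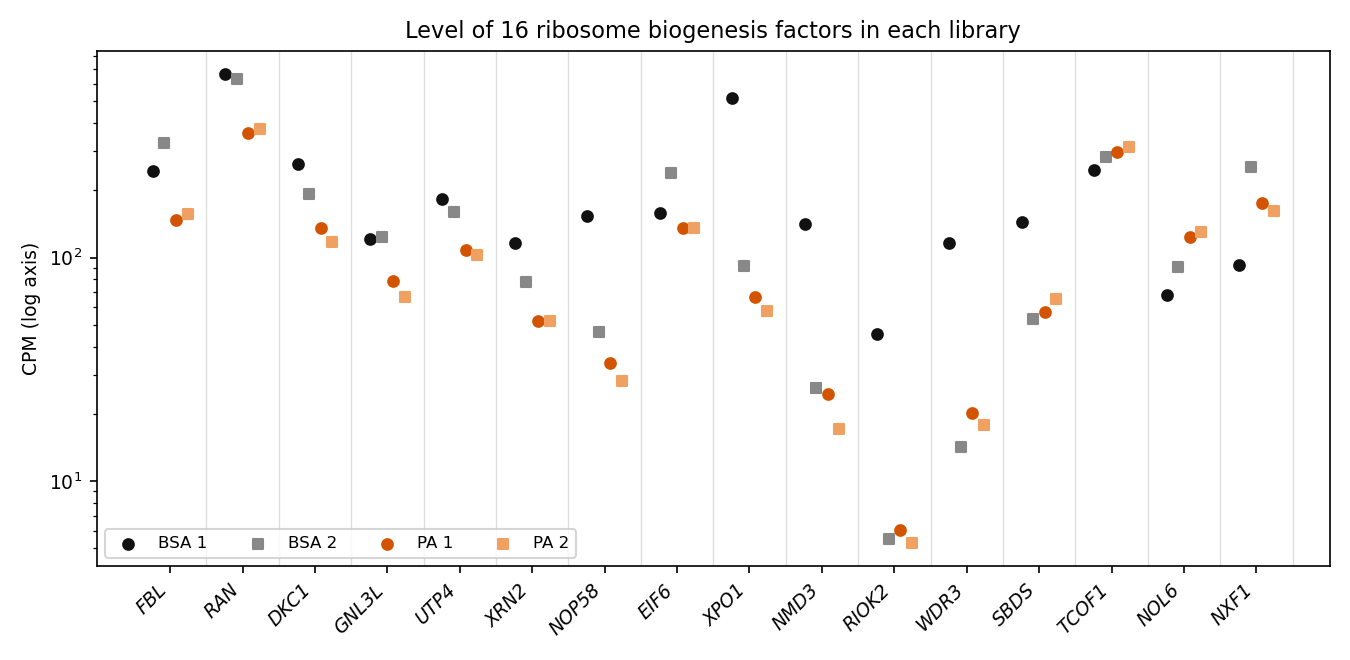
Points show the CPM (log axis) of 16 factors in each of the 4 libraries. For FBL, RAN, DKC1, GNL3L, UTP4 and XRN2 both PA libraries sit below both BSA libraries, while for XPO1, NMD3, RIOK2, WDR3 and SBDS BSA 1 alone stands high, and NOL6 and TCOF1 are highest in PA.

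Among 14 other small subunit and pre-40S factors the median log2 fold change was -0.37 (-0.57 against BSA 1 and -0.13 against BSA 2), and in 6 PA lay below both BSA libraries. NOB1, the endonuclease that makes the final cut of 18S ribosomal RNA, had the highest mean FPKM of the 14 (48.1) and stood at 111 and 130 CPM in BSA 1 and BSA 2 and at 76.9 and 86.3 CPM in PA 1 and PA 2. Its groups were apart (log2 fold change -0.49 ± 0.22, edgeR adjusted p = 0.244). RIOK2, a kinase of late pre-40S maturation, stood at 45.7 CPM in BSA 1 and at 5.52, 6.03 and 5.31 CPM in BSA 2, PA 1 and PA 2. AK6, an adenylate kinase of the same step that overlaps TAF9, had the same arrangement at 12.5, 2.15, 1.85 and 2.82 CPM. For both, the groups overlapped and the 3 libraries other than BSA 1 were close together. NAT10, which acetylates 18S ribosomal RNA, was nearly level at 153, 178, 167 and 167 CPM, and the GTPase BMS1 was level at 153, 125, 149 and 120 CPM. REXO1, an exonuclease by name, stood at 33.7, 63.4, 59.4 and 52.8 CPM, lowest in BSA 1. EMG1, a methyltransferase of the same ribosomal RNA, stood at 11.7, 9.88, 8.66 and 7.71 CPM. ENSG00000290146 overlaps it on the same strand and held 33, 60, 20 and 10 counts, so reads may be split between these genes.

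RNase MRP and RNase P are related RNA enzymes that cut ribosomal and transfer RNA precursors, and here they are grouped with the exonucleases XRN1 and XRN2 and with DROSHA, a double-strand RNA nuclease. In 7 of these 12 (58.3%, against 32.7% of all genes) PA lay below both BSA libraries and in 1 above (against 26.5%), and the median log2 ratio was -0.25 against BSA 1 and -0.34 against BSA 2. XRN2, which trims precursor ends in the nucleus, stood at 116 and 78.1 CPM in BSA and at 52.1 CPM in each PA library (log2 fold change -0.82 ± 0.26, edgeR adjusted p = 0.160). XRN1, its cytoplasmic relative, stood at 67.0 CPM in BSA 1 and at 19.0 to 19.7 CPM in the other 3 libraries. The relatives thus differed in where BSA 2 lay. DROSHA stood at 158, 97.0, 87.1 and 67.6 CPM, in the arrangement of XRN2. The subunit RPP25 stood at 54.5, 97.1, 52.4 and 49.3 CPM, with BSA 2 apart, while RPP38 stood at 14.3, 17.2, 20.4 and 20.8 CPM, highest in PA (log2 fold change 0.45 ± 0.29, edgeR adjusted p = 0.368). POP7, the subunit with the highest mean FPKM (47.8), stood at 44.5 and 50.8 CPM in BSA and 40.9 and 38.2 CPM in PA. Of the shared subunits, POP5 was nearly level at 33.3, 35.3, 32.1 and 32.0 CPM.

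The 14 factors grouped here as pre-60S, with TCOF1 among them, had a median log2 fold change of -0.34 (-0.51 against BSA 1 and -0.12 against BSA 2). PA lay below both BSA libraries in 6 and above in 2. EIF6, which keeps the immature large subunit from joining the small one, had the highest mean FPKM of the 14 (102) and stood at 159 and 239 CPM in BSA 1 and BSA 2 and at 136 CPM in each PA library. SBDS, which with the GTPase EFL1 releases EIF6, stood at 144, 52.9, 57.2 and 65.2 CPM. EFL1 stood at 36.2, 23.4, 37.6 and 28.6 CPM. In this release step PA was below both BSA libraries for EIF6, between them for SBDS, and overlapped them for EFL1. GNL3L, a nucleolar GTPase, stood at 121 and 124 CPM in BSA and 78.9 and 66.6 CPM in PA (log2 fold change -0.68 ± 0.21, edgeR adjusted p = 0.152). Its paralogue GNL3, known as nucleostemin, stood at 171 CPM in BSA 1 and at 38.8, 46.7 and 29.6 CPM in BSA 2, PA 1 and PA 2. GNL2, another of the family, stood at 137, 93.4, 76 and 68.6 CPM. PA was therefore below both BSA libraries in GNL3L and GNL2, and GNL3 overlapped. NMD3, the adaptor that links the pre-60S particle to XPO1, stood at 142, 26.1, 24.5 and 17.1 CPM, with BSA 1 apart and PA 1 near BSA 2. MDN1, the giant ATPase that strips factors from the particle, stood at 88.9 and 67.9 CPM in BSA and 58.2 and 56.1 CPM in PA. TCOF1, the treacle protein that links polymerase I to the modification machinery, stood at 247 and 282 CPM in BSA and 296 and 312 CPM in PA, and RBM28, a nucleolar RNA-binding protein, at 67.4, 70.6, 77.8 and 77.6 CPM. PA lay above both BSA libraries for both, but neither passed the test (log2 fold changes 0.27 ± 0.21 and 0.24 ± 0.20), and TCOF1 was at -0.084 with the GC trend removed.

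Nuclear export had a median log2 fold change of -0.74 over 5 factors tested (-0.84 against BSA 1 and -0.59 against BSA 2), and the values of RAN and XPO1 are given above. NXF1, the main messenger RNA export receptor, had the reverse arrangement in BSA, at 92.3 CPM in BSA 1 and 255 CPM in BSA 2, with PA 1 and PA 2 between at 176 and 162 CPM. Its log2 fold change was 0.02 ± 0.51 with both BSA libraries, -0.53 without BSA 1 and 0.98 without BSA 2. NXT1, a partner of NXF1, stood at 29, 37, 28.8 and 30.1 CPM, with the groups overlapping. NXT2, a second partner, stood at 9.56 CPM in BSA 1 and at 1.01, 0.944 and 0.422 CPM in the others, which for the last is 10 counts. XPO1 and NXT2 were the calls of DESeq2 (adjusted p = 0.0233 and 0.0334), and in both BSA 1 alone was high. By edgeR the adjusted p of NXT2 was 0.212, and its log2 fold change was -0.47 without BSA 1 and -3.65 without BSA 2.

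Other genes of the pathway stand outside this KEGG map, and 0 of them passed an adjusted p of 0.05 by edgeR or limma-voom. Of 25 genes of the RNA polymerase I machinery and its regulators, 4 were lower in PA and 0 higher at an unadjusted p under 0.05 (against 11.2% and 13.1% of all genes). Their median log2 fold change was -0.43 (all genes, -0.12), with -0.61 against BSA 1 and -0.29 against BSA 2. They include NPM1, a nucleolar chaperone, at 1276 and 589 CPM in BSA and 293 and 257 CPM in PA, and NCL, nucleolin, at 674 and 598 CPM in BSA and 416 and 339 CPM in PA. UBTF, which opens ribosomal DNA to polymerase I, stood at 173 and 274 CPM in BSA and 140 and 145 CPM in PA. The largest polymerase I subunit POLR1A stood at 100 and 107 CPM in BSA and 92.5 and 84.9 CPM in PA, and POLR1B at 134, 60.9, 66.4 and 59.9 CPM. At the same p and against the same shares, 5 of 44 further pre-60S factors were lower, near the background, and 2 higher (median -0.076; -0.013 against BSA 1 and -0.18 against BSA 2). Of 30 further small subunit factors 0 were either (median -0.32, with -0.47 and -0.16 against BSA 1 and BSA 2). NOC4L stood in both of these lists. Of the 14 genes of the RNA exosome, which trims precursor ends, 3 were lower and 0 higher (median -0.75; -0.90 and -0.26 against BSA 1 and BSA 2). DESeq2 called 2 of the polymerase I list lower (POLR2K and NPM1), 2 of the exosome list lower (EXOSC5 and C1D), and 3 of the further pre-60S factors lower (CEBPZ, PPAN and RSL24D1) and 1 higher (URB1), where 4.42% of all genes were called lower and 6.13% higher. In POLR2K, C1D, CEBPZ and RSL24D1 BSA 1 alone was high: POLR2K stood at 36.8 CPM there and at 1.62 to 1.98 CPM in the other libraries. EXOSC10, the nuclear exosome nuclease, stood at 132 and 196 CPM in BSA and 161 and 173 CPM in PA. The 2 higher pre-60S factors were URB1, at 94.3 and 79.9 CPM in BSA and 163 and 172 CPM in PA, and RRP12, at 99.9 and 133 CPM in BSA and 179 and 169 CPM in PA.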

How the data were processed

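The authors deposited 1 table with read counts per gene (whole numbers, per the file headers) and FPKM values by the authors, which correct for length and depth, per the file headers, for 4 libraries. HISAT2, StringTie and SAMtools were used on build hg38, per the submitters' processing notes. Tool versions, the annotation, how reads were counted and whether strand was used: not given in the sources used here. Of the factors, 9 overlap a gene on the same strand and 32 a gene on the opposite strand, whose reads may not be separable.

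The members, the role lists and the tests were chosen with earlier results of these data known. Counts of 2 BSA and 2 PA libraries, grouped by title, went into edgeR 4.0.16 under R 4.3.3. The settings were TMM factors, the filterByExpr filter, a quasi-likelihood F test and Benjamini-Hochberg adjustment over 17449 genes, with a threshold of 0.05. The procedure was also run on simulated counts. Those held no trend over GC content and no control library set apart, so that run does not cover such differences. The SE is the fold change (log2) over the root of F. Single-library ratios used CPM of the library total with a prior count of 0.5. CPM intervals cover counting error only and are not printed; a factor at 1 CPM rests on about 24 to 32 counts. GC content came from the longest GENCODE 29 transcript and the trend was a loess fit (span 0.3). ENSG00000290146 was put in a role list after the table was seen.

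The rule for named factors took, in each role, the highest mean FPKM and the highest and lowest fold change, the 5 extreme factors each way in BSA 2 over BSA 1, factors past an adjusted p of 0.05 and a fixed list. Other factors given with values, such as UTP4, GNL3L, XRN2 and REXO2, were named after their values were seen. Alternatives used RLE, upper-quartile or no factors, other filters, a replicate block, limma 3.58.1 (voom, or log2 of FPKM plus 1 or 0.1), DESeq2 1.42.0, trend removal, a fold of 1.5, and leaving out each library. Same-numbered libraries did not deviate together (correlation 0.00844 over 17449 genes). That value compares a single difference between libraries in each group, so it cannot tell whether same-numbered libraries were prepared together. Figures were drawn with matplotlib 3.10.9.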

Additional observations from a re-analysis of the deposited data

How the results depend on the processing

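Over 16 results that answer a comparison, 102 values under the alternatives stayed near the reported ones and 43 moved. With both groups at 2 libraries, the count of factors called lower at an adjusted p of 0.05, 0 by edgeR, was 1 with no filter on low counts, 1 with the GC and length trend removed, 1 with the replicate block and that trend removed, and 2 by DESeq2. At an unadjusted p under 0.05, 9 lower became 17 with no filter and 17 with the trend removed, and 1 higher became 0 with upper-quartile factors and 0 with the block and trend removal. Leaving out each library gave 0 to 39 factors lower and 0 to 8 higher (adjusted), and 2 to 39 lower and 0 to 8 higher (unadjusted), with the lone library of a group assumed to vary like the other group. The replicate block alone left 0 factors called and 9 lower and 1 higher at an unadjusted p under 0.05. Over all genes it called 135 lower and 402 higher against 0 without it. Whether the replicate numbers pair the libraries is not known. Over the factors, the median log2 ratio of PA to BSA 1 was -0.42 with TMM-scaled totals, -0.40 with RLE factors and -0.27 with the trend removed, and -0.59 to -0.50 leaving out a PA library. For PA to BSA 2 it was -0.21 with TMM-scaled totals, -0.21 with RLE factors and -0.18 with the trend removed, and -0.30 to -0.15 leaving out a PA library. For BSA 2 to BSA 1 it was -0.18, -0.16 and -0.036 under the first 3 of these. Factors past the fold against BSA 1 numbered 9 lower with the trend removed and 34 lower and 3 higher at 1.5-fold, and 1 higher with RLE factors and with members of any count, and 0 to 1 higher leaving out a PA library. Against BSA 2 they numbered 1 lower with the trend removed and 15 lower at 1.5-fold. For BSA 2 against BSA 1 they numbered 8 lower with the trend removed, and 24 lower and 6 higher at 1.5-fold. The cause of these shifts was not tested.

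Of the fold changes of 36 named factors, 541 values under alternatives kept their sign, 47 of them newly past the threshold, and 32 reversed sign. Leaving out each library gave log2 ranges of -2.33 to 0.18 for AK6, -2.65 to 1.53 for FBLL1, -0.31 to 0.048 for GAR1, -0.52 to 0.30 for MPHOSPH10, -0.46 to 0.0031 for NOP10, -0.53 to 0.98 for NXF1, -0.11 to 0.84 for REXO1, -2.90 to 0.11 for RIOK2, -0.87 to 0.0086 for RPP25, -1.13 to 0.28 for SBDS, -2.51 to 0.48 for WDR3 and -1.67 to 0.10 for XRN1. With the trend removed, without and then with the replicate block, FBLL1 was at 0.18 and 0.028, GAR1 at 0.062 and 0.063, HEATR1 at 0.053 and 0.094, MPHOSPH10 at 0.31 and 0.29, NXF1 at -0.18 and -0.059, TBL3 at -0.22 and -0.21 and TCOF1 at -0.084 and -0.083. NXF1 was also at -0.035 with upper-quartile factors, -0.038 with library totals only and -0.0028 with a filter of 1 CPM in 2 libraries. An alternative chosen after seeing the data, box C/D proteins without FBLL1, moved their median log2 ratio of PA to BSA 2 from -0.84 to -0.59. Among factors tested, FBLL1 and ENSG00000290146 held at most 16 and 60 counts in any library, and counting error limits their values.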
